A study of Caenorhabditis elegans with 12 samples.

Results

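DAF-16 is the FOXO transcription factor at the end of the insulin pathway of Caenorhabditis elegans. Insulin-like peptides bind the receptor DAF-2, which signals through the kinase AGE-1 to AKT kinases, and these hold phosphorylated DAF-16 in the cytoplasm. When the pathway is quiet, as in dauer larvae or long-lived daf-2 mutants, DAF-16 enters nuclei and raises genes of stress defence and metabolism. Another class of genes is lower when DAF-16 is active, and its regulation has been linked to the transcription factor PQM-1.

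The 10 genes described here are known DAF-16 targets, taken by name from the WBcel235 Ensembl annotation, out of 46926 genes in the count table. All 10 were found, all were protein-coding, and all passed the filter on low counts, which left 16637 genes for testing. They comprise 7 genes raised by active DAF-16 (mtl-1, ftn-1, lea-1, icl-1, hil-1, dod-3 and dod-6) and 3 genes of the lowered class (dod-17, dod-22 and dod-24). The name dod stands for downstream of DAF-16.

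Poly-A RNA of whole worms was sequenced in 12 libraries, 4 from each of 3 strains grown at 20 °C and labelled as larval stage 4. The wild type was the non-transgenic strain N2. The TDP-43 strain carried TDP-43, an RNA-binding protein that aggregates in neurodegenerative disease, under the promoter of the pan-neuronal gene snb-1, with a dsRED marker under the pharyngeal muscle promoter of myo-2. The TDP-43ΔNLS strain used the same snb-1 promoter for TDP-43 whose nuclear localization signal was altered by K82A, R83A and K84A, with dsRED under the body wall muscle promoter of myo-3. The series title frames the comparison as nuclear against cytoplasmic TDP-43. Marker and strain history differ along with the transgene, so their effects cannot be told apart. Whether replicates were grown as separate cultures is not stated in the labels, and the p-values therefore cover library-to-library spread that may be technical. In whole worms, fewer cells of a type and less RNA per cell cannot be told apart.

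Total counts ran from 20671982 to 26910097 per library. Of the libraries, 4 stood apart, namely replicate 4 of each strain and also replicate 3 of TDP-43ΔNLS. Their mean level over 18 oocyte and eggshell genes was 2.35 to 4.14 log2 CPM (counts scaled to library size), against 8.14 to 9.4 in the other 8. They are called oocyte-poor below, and the other 8 oocyte-rich. Summed CPM of 8 molting genes was 1810 to 2810 in the oocyte-poor libraries and 82.7 to 629 in the oocyte-rich ones. Summed CPM of 4 adult cuticle collagen genes was 39.9 to 1060 and 2050 to 3580, so 8 libraries held adult transcripts in quantity although all 12 were labelled larval. Strain differences were therefore also fitted with a term for this split, which is defined from expression and is an added description beside the designed test.

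Of the 10 genes, 6 lie on chromosome V, 3 on chromosome IV and 1 on chromosome III. The 3 genes of the lowered class are close neighbours. They run from dod-24 (WBGene00007875, chromosome IV, 12940106 to 12941354, minus strand) over dod-22 (WBGene00010125, chromosome IV, 12965374 to 12967392, plus strand) to dod-17 (WBGene00010745, chromosome IV, 12976303 to 12978343, plus strand). Between dod-22 and dod-17 lie 8910 bases with 2 protein-coding genes. The exons of 9 of the 10 genes overlap no other annotated exon, while lea-1 shares 19 bases with acl-2 on the other strand.

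Levels spanned a wide range. On the scale of CPM per kilobase of exon, averaged over 12 libraries (mean ± SD), dod-6 was highest at 336 ± 167, followed by icl-1 at 141 ± 38.6 and lea-1 at 61.9 ± 7.64. At the other end stood dod-3 at 4.66 ± 2.46, dod-22 at 3.3 ± 1.05 and ftn-1 at 2.48 ± 2.85. Between them, mtl-1 (20.6 ± 18.1), dod-17 (19.3 ± 6.24), hil-1 (12.7 ± 7.42) and dod-24 (6.84 ± 4.51) held the middle. The order of icl-1 above lea-1 held in all 12 libraries. Neighbours with no steady order were mtl-1 and dod-17, where mtl-1 was higher in 6 of 12 libraries, and dod-22 and ftn-1, where dod-22 was higher in 7 of 12. The order was also unsteady for dod-24 above dod-3 and for dod-3 above dod-22, each in 8 of 12.

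**Figure D1:**
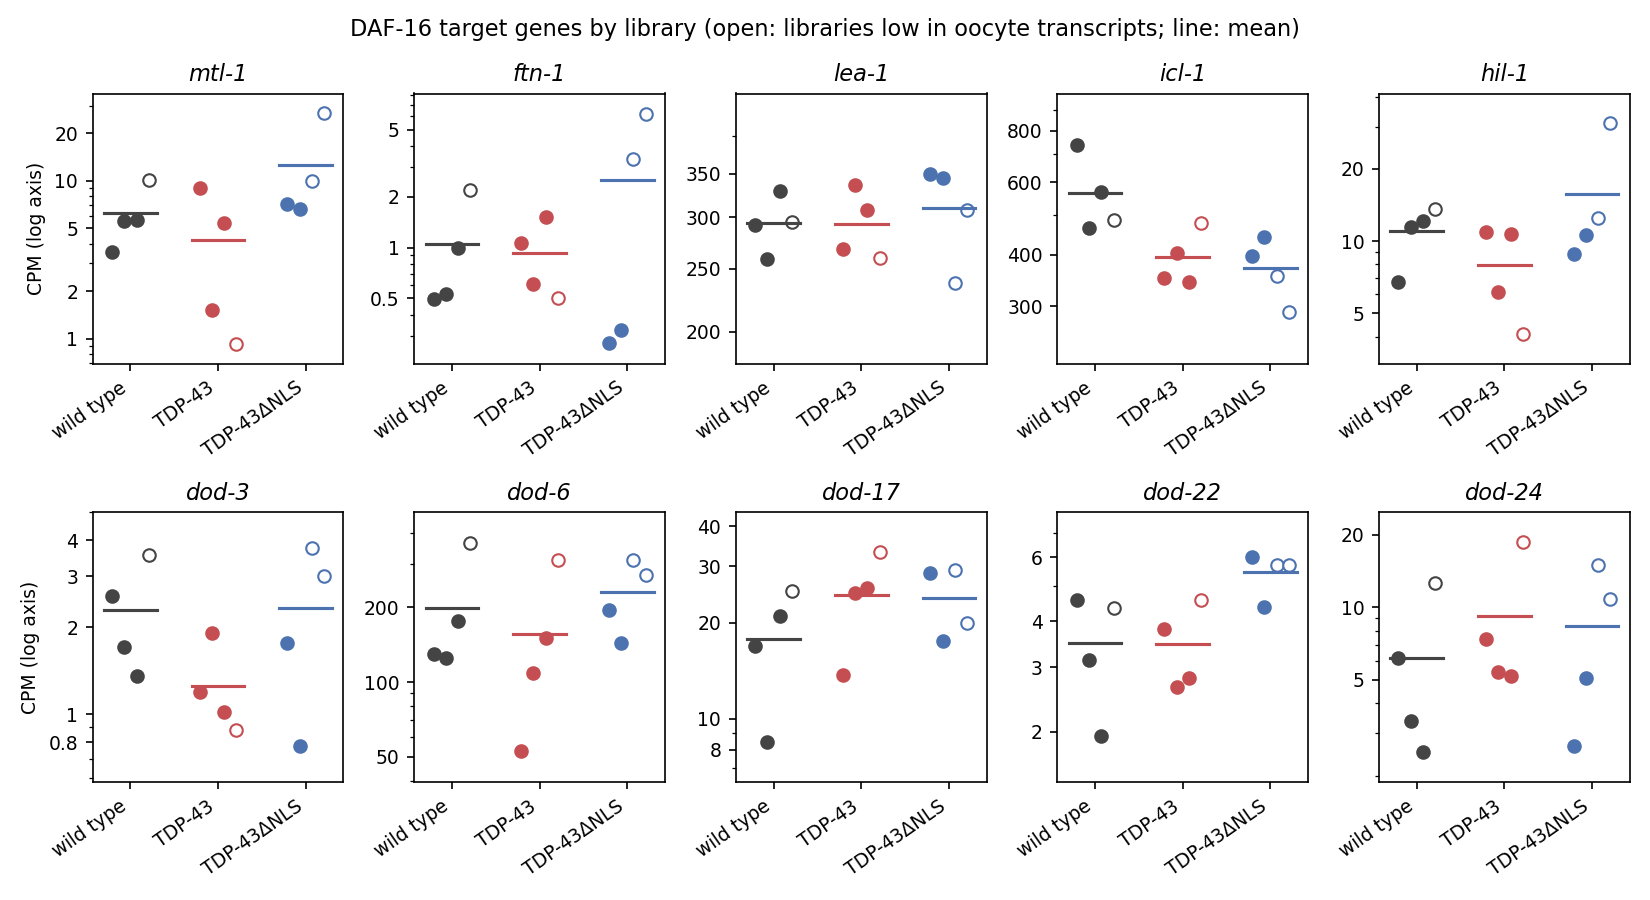
CPM of each of the 10 genes on a log axis in the 12 libraries, by strain. Each point is a library, open points are the 4 oocyte-poor libraries and lines are strain means. The icl-1 panel shows all 4 TDP-43ΔNLS libraries (290 to 442 CPM) below all 4 wild type libraries (465 to 740 CPM).

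No member passed the designed test in any comparison, and icl-1 came closest in each comparison with wild type. icl-1 (WBGene00001564, chromosome V, 724332 to 728004, minus strand) encodes the glyoxylate cycle enzyme that joins isocitrate lyase and malate synthase, with which worms turn fat into carbohydrate. In wild type replicates 1 to 4 it stood at 740, 465, 566 and 486 CPM. In TDP-43 it stood at 351, 404, 343 and 477 CPM. In TDP-43ΔNLS it stood at 396, 442, 355 and 290 CPM. All TDP-43ΔNLS libraries lay below all wild type libraries, and of the TDP-43 libraries replicate 4 alone lay above the lowest wild type value.

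Wild type averaged 564 ± 125 CPM of icl-1, TDP-43 394 ± 61.8 and TDP-43ΔNLS 371 ± 64.7 (SD, n = 4). The log2 fold change was -0.52 ± 0.20 (SE) in TDP-43 and -0.61 ± 0.20 in TDP-43ΔNLS, both against the same wild type libraries. These correspond to 0.698 and 0.657 times the wild type level. Unadjusted p was 0.026 and 0.0118 in edgeR's quasi-likelihood test, and the adjusted p was 1 in both. The gene ranked 153 and 70 by p among 16637 genes. The strains themselves differed by -0.09 (95% interval -0.53 to 0.36), TDP-43ΔNLS minus TDP-43. Without wild type replicate 1, the highest library, the 2 log2 fold changes against wild type were -0.37 and -0.48. Among oocyte-rich libraries alone, icl-1 averaged 590 CPM in 3 wild type, 366 CPM in 3 TDP-43 and 419 CPM in 2 TDP-43ΔNLS libraries, and the log2 fold changes were -0.66 ± 0.18 and -0.47 ± 0.20 (edgeR adjusted p 0.537 and 0.85). Among the oocyte-poor libraries the single wild type and TDP-43 libraries were nearly level at 486 and 477 CPM, while TDP-43ΔNLS averaged 322 CPM.

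The designed edgeR fit called 0 of the 10 members in TDP-43 against wild type, where 0.00601 percent of all genes tested passed an adjusted p of 0.05 (1 gene, and 0 with the replicate number as a block). It called 0 of 10 in TDP-43ΔNLS against wild type, where 0 percent passed, and 0 of 10 between the strains, where again 0 percent passed. With the split term 0 of 10 passed in each comparison, against 0.0962, 0.0541 and 0.00601 percent of all genes. DESeq2 and limma voom also called 0 of 10 in each. At an unadjusted p under 0.05, 1 of 10 passed in each designed comparison (icl-1 in both strains against wild type and mtl-1 between the strains), against 1.83, 1.45 and 2.57 percent of all genes. DESeq2 gave 0, 2 and 2 of 10 at that level and voom 1, 1 and 1. Libraries of TDP-43ΔNLS lay wholly below wild type for 1 of 10 members, icl-1, against 0.854 percent of all genes. In TDP-43 0 of 10 lay wholly below wild type, against 1.11 percent of all genes, and 0 of 10 wholly above, against 0.541 percent. None lay wholly above wild type in TDP-43ΔNLS, against 0.469 percent. Between the strains 0 of 10 were separated, against 1.04 percent of all genes higher and 0.733 percent lower in TDP-43ΔNLS.

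The signs of the fold changes are given for the 7 raised and the 3 lowered targets apart. In TDP-43 against wild type the median log2 fold change was -0.46 over the 7 raised targets and 0.45 over the 3 lowered ones, beside 0.02 over all genes tested. Of the lowered ones 2 were positive and dod-22 was at -0.02. All 7 raised targets were at or below 0, with lea-1 at 0.00, where 48.1 percent of all genes were negative. In TDP-43ΔNLS against wild type the medians were 0.21 and 0.45, beside -0.01 over all genes, and both classes were mostly positive, with 3 of 3 lowered and 6 of 7 raised targets, the exception being icl-1, where 50.8 percent of all genes were negative. Between the strains 6 of 7 raised targets had higher values in TDP-43ΔNLS (median 0.89) and 1 of 3 lowered ones (median -0.03), where 50.5 percent of all genes were negative. With the split term the median of the raised targets was -0.40 in TDP-43 against wild type (6 of 7 negative). It was 0.12 in TDP-43ΔNLS against wild type (5 of 7 positive) and 0.41 between the strains (5 of 7). The split-term medians of the lowered targets were 0.45, 0.35 and -0.11 in the same order. These comparisons share libraries, and the counts are a description of genes chosen with earlier results known. With the oocyte-poor libraries left out, mtl-1 was at 0.14 and ftn-1 at 0.71 in TDP-43 against wild type, so the shared sign there did not hold without replicate 4. In TDP-43ΔNLS against wild type ftn-1 was then at -1.13, dod-3 at -0.53 and hil-1 at -0.04, which with icl-1 left 3 of 7 raised targets positive.

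**Figure D2:**
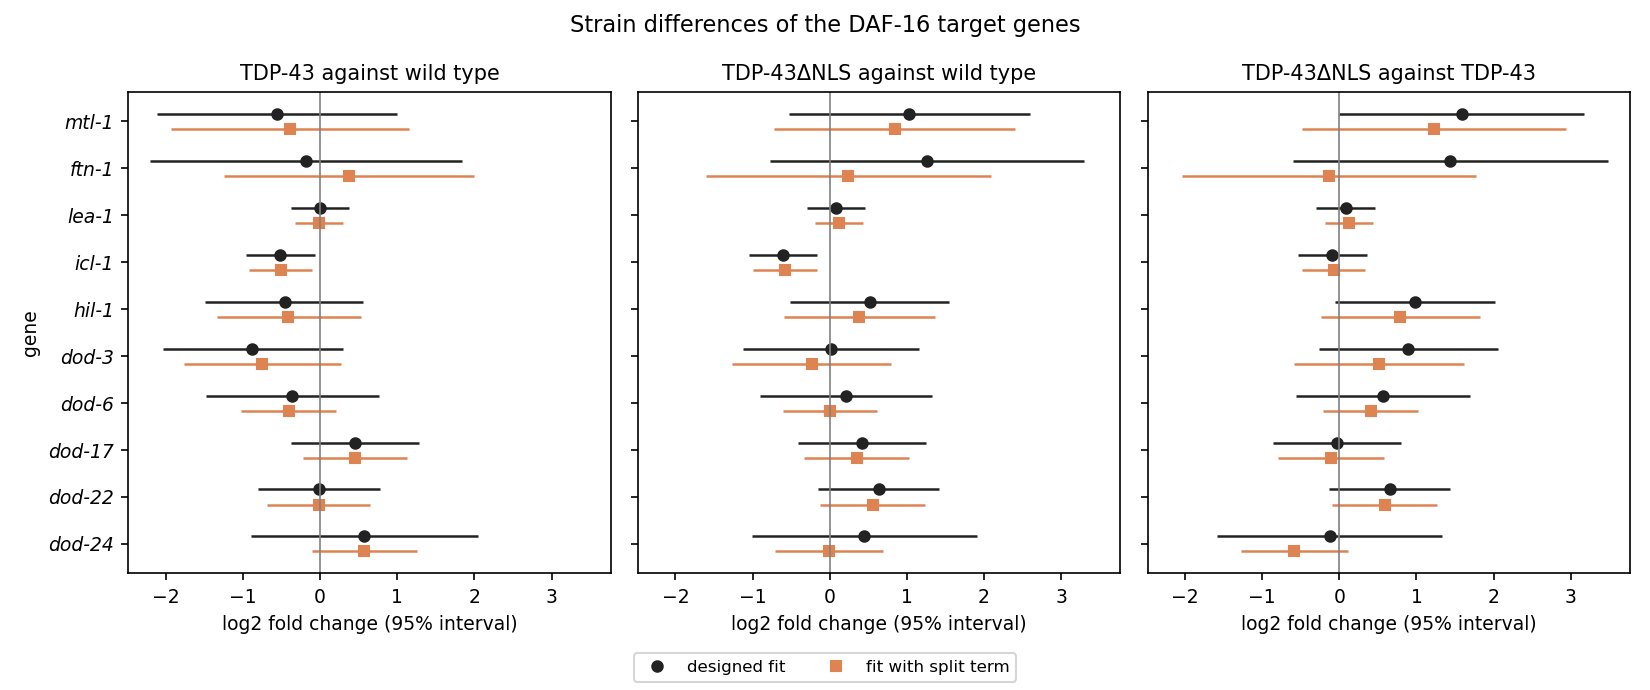
Log2 fold changes with 95% intervals for the 10 genes in the 3 comparisons, from the designed fit (circles) and the fit with the split term (squares). Of the designed intervals against wild type, those of icl-1 alone leave out 0, at -0.96 to -0.07 in TDP-43 and -1.05 to -0.16 in TDP-43ΔNLS, before adjustment over all genes.

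The genes mtl-1 and hil-1 varied together between libraries, ftn-1 less closely, and the highest values of all 3 were in TDP-43ΔNLS replicate 4. mtl-1 (WBGene00003473, chromosome V, 6691371 to 6691863, minus strand) encodes a metallothionein, a small cysteine-rich protein that binds metals, and is a standard readout of DAF-16 activity. Its CPM was 3.55, 5.57, 5.65 and 10.1 in wild type replicates 1 to 4. In TDP-43 it was 9.01, 1.51, 5.43 and 0.925 CPM. In TDP-43ΔNLS it was 7.17, 6.59, 10 and 26.9 CPM. The groups overlapped, with TDP-43 replicates 2 and 4 below all others and TDP-43ΔNLS replicate 4 far above.

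The lowest mtl-1 value rests on 22 counts and the highest on 663. Between the strains the log2 fold change of mtl-1 was 1.59 ± 0.72 (95% interval 0 to 3.17, unadjusted p 0.0496, edgeR adjusted p 0.998), TDP-43ΔNLS minus TDP-43. It was 0.91 without TDP-43ΔNLS replicate 4, 1.25 without TDP-43 replicate 4, and 0.36 ± 0.58 among the oocyte-rich libraries alone. Against wild type it was -0.56 ± 0.71 in TDP-43 and 1.03 ± 0.71 in TDP-43ΔNLS, and the latter was 0.35 without TDP-43ΔNLS replicate 4.

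hil-1 (WBGene00001852, chromosome V, 14949777 to 14952799, plus strand) encodes a variant of linker histone H1. It stood at 6.74, 11.5, 12.1 and 13.6 CPM in wild type replicates 1 to 4. TDP-43 held 10.9, 6.15, 10.7 and 4.12 CPM, and TDP-43ΔNLS 8.85, 10.6, 12.5 and 31 CPM. Its extremes fell in the same libraries as those of mtl-1, TDP-43 replicate 4 at the bottom and TDP-43ΔNLS replicate 4 at the top. Across the 12 libraries log2 CPM of hil-1 and mtl-1 correlated at 0.944, and at 0.941 after centring within the oocyte-poor and oocyte-rich libraries. The median over all 45 pairs of members was 0.16 and 0.00194 on these scales. Such correlations are given as descriptions, since the libraries share strain, stage and depth. Between the strains the log2 fold change of hil-1 was 0.98 ± 0.47 (edgeR adjusted p 0.998), and 0.42 without TDP-43ΔNLS replicate 4.

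ftn-1 (WBGene00001500, chromosome V, 7546468 to 7547579, minus strand) encodes an intestinal ferritin, which stores iron, and was the least abundant member, with 7 to 152 counts per library. It stood at 0.494, 0.529, 0.994 and 2.19 CPM in wild type replicates 1 to 4. TDP-43 held 1.06, 0.611, 1.53 and 0.505 CPM, and TDP-43ΔNLS 0.274, 0.327, 3.36 and 6.17 CPM. The TDP-43ΔNLS libraries fell apart into an oocyte-rich pair below all other libraries and an oocyte-poor pair above them. The oocyte-rich pair was not low for mtl-1, at 7.17 and 6.59 CPM, and log2 CPM of ftn-1 correlated at 0.688 with mtl-1 and 0.764 with hil-1. Its log2 fold change in TDP-43ΔNLS against wild type was accordingly 1.26 ± 0.93 in the designed fit, 0.24 ± 0.85 with the split term and -1.13 ± 0.76 among the oocyte-rich libraries (edgeR adjusted p 1, 0.97 and 0.85).

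**Figure D3:**
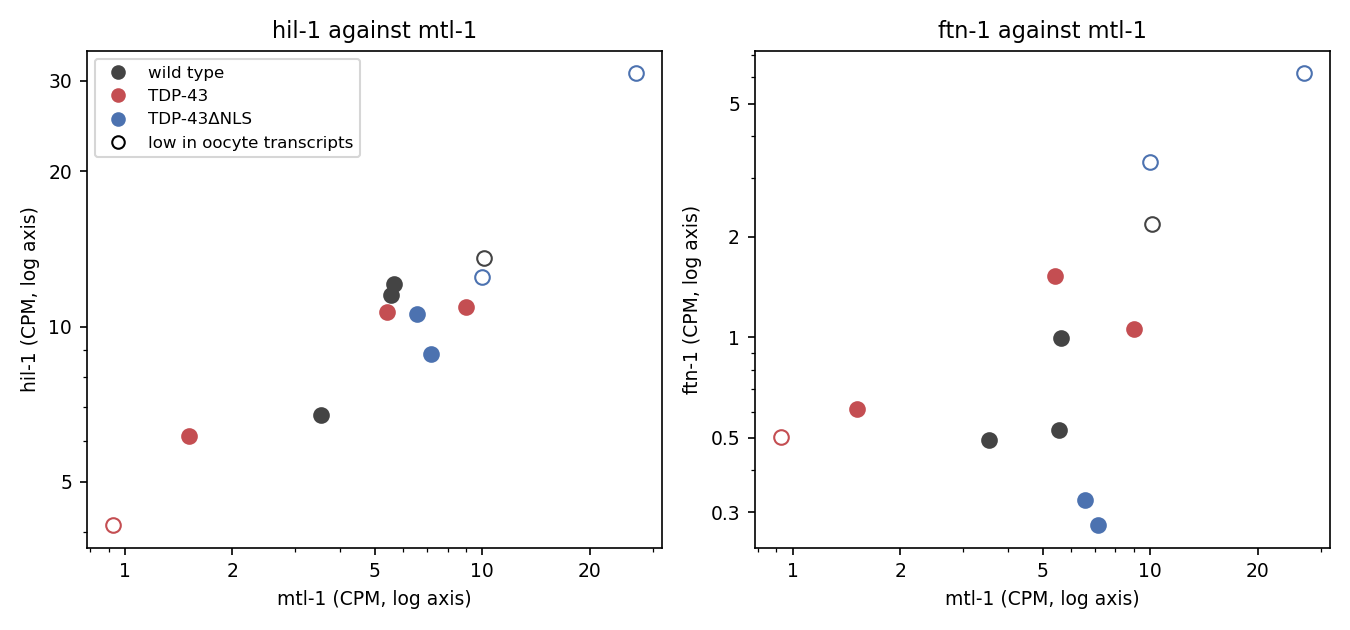
CPM of hil-1 (left) and ftn-1 (right) against CPM of mtl-1 on log axes, 1 point per library, coloured by strain, with open points for the oocyte-poor libraries. TDP-43 replicate 4 (0.925 CPM of mtl-1, 4.12 CPM of hil-1) and TDP-43ΔNLS replicate 4 (26.9 and 31 CPM) mark the ends.

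In wild type and TDP-43ΔNLS the oocyte-poor libraries were the higher ones for mtl-1, ftn-1, hil-1 and dod-3, and in TDP-43 the single oocyte-poor library was the lowest for all 4. The ratio of mean mtl-1 CPM in oocyte-poor to oocyte-rich libraries was 2.05 in wild type, 2.68 in TDP-43ΔNLS and 0.174 in TDP-43. For ftn-1 the ratios were 3.26, 15.8 and 0.472, and for hil-1 1.35, 2.23 and 0.446 in the same order. dod-3 (WBGene00016052, chromosome V, 2730622 to 2731098, minus strand) had ratios of 1.89, 2.66 and 0.643. The oocyte-poor side held 1 wild type, 1 TDP-43 and 2 TDP-43ΔNLS libraries, so this contrast has no replicate in TDP-43 and was not tested. TDP-43 replicate 4 had 2120 summed CPM over 11 intestine genes, where the other 3 oocyte-poor libraries had 2470 to 3860, and 2810 over the molting genes, where they had 1810 to 2070. The part of these tissue and stage markers in the result was not tested.

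**Figure D4:**
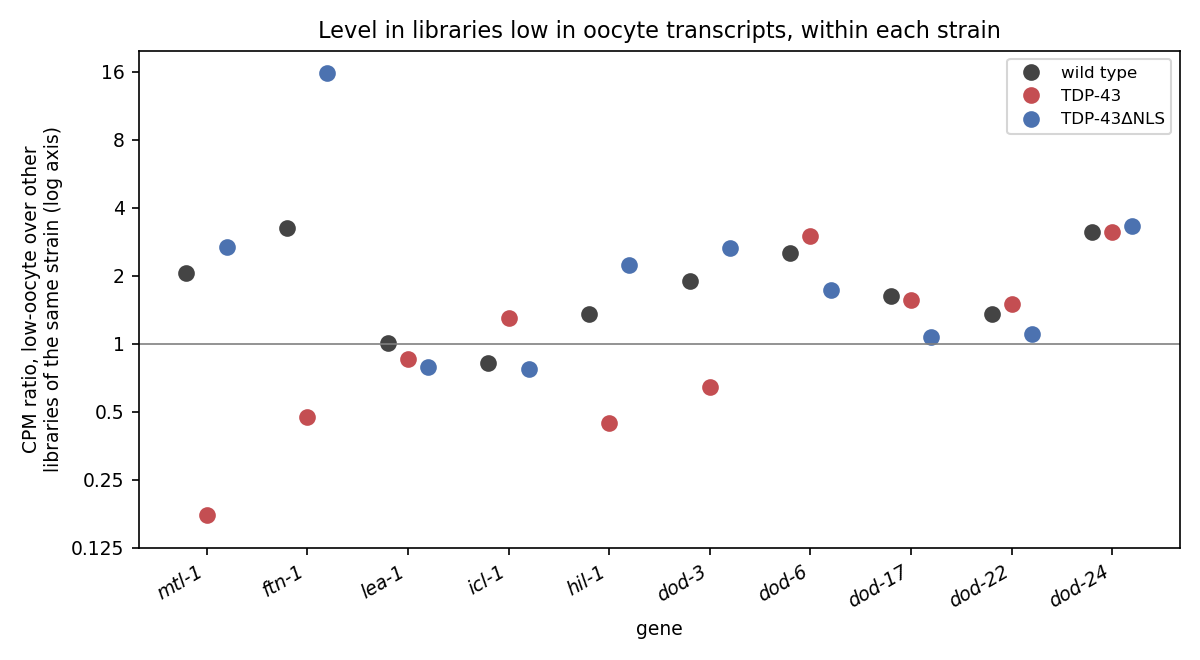
Ratio of mean CPM in oocyte-poor to oocyte-rich libraries within each strain (log axis), from 1 against 3 libraries in wild type and TDP-43 and 2 against 2 in TDP-43ΔNLS. TDP-43 lies below 1 and the other strains above 1 for mtl-1, ftn-1, hil-1 and dod-3, while dod-24 lies between 3.13 and 3.32 in all strains.

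dod-3 itself stood at 2.56, 1.71, 1.36 and 3.55 CPM in wild type replicates 1 to 4. It was at 1.19, 1.91, 1.02 and 0.883 CPM in TDP-43, and at 1.76, 0.777, 3.76 and 3 CPM in TDP-43ΔNLS. The groups overlapped in every comparison. Its log2 fold change in TDP-43 against wild type, -0.88 ± 0.53 (95% interval -2.04 to 0.29, edgeR adjusted p 1), and it was -0.43 ± 0.49 without the oocyte-poor libraries.

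dod-6 (WBGene00011869, chromosome III, 10197716 to 10198352, plus strand) and dod-24 followed the split in every strain. In the oocyte-poor libraries dod-6 stood at 270 to 365 CPM and in the oocyte-rich ones at 52.6 to 195 CPM. For dod-24, which like dod-17 and dod-22 encodes a protein with a CUB-like domain and is linked to intestinal immune defence, the ranges were 10.8 to 18.7 and 2.51 to 7.37 CPM. These are the 2 of 10 members with no overlap between the sides in the upward direction, and 22.3 percent of all genes tested showed the same, so the share is near the background. The ratio of oocyte-poor to oocyte-rich means was 2.53, 2.99 and 1.72 for dod-6 in wild type, TDP-43 and TDP-43ΔNLS. Adding the split term narrowed the standard error of the dod-6 log2 fold change in TDP-43 against wild type from 0.51 to 0.28, around values of -0.36 and -0.40, and that of dod-24 from 0.67 to 0.31, around 0.57 in both fits. Neither passed (edgeR adjusted p 0.858 and 0.836 with the split term).

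The other lowered targets varied less. dod-22 stood at 4.58, 3.13, 1.94 and 4.34 CPM in wild type replicates 1 to 4 and at 3.81, 2.65, 2.81 and 4.58 CPM in TDP-43. In TDP-43ΔNLS it stood at 5.99, 4.38, 5.72 and 5.72 CPM, so 3 of these 4 libraries lay above all 8 others. The log2 fold change was 0.64 ± 0.36 against wild type and 0.66 ± 0.36 against TDP-43 (edgeR adjusted p 1 and 0.998). For dod-17 the values ran from 8.46 to 25 CPM in wild type, 13.7 to 33.3 in TDP-43 and 17.5 to 29.2 in TDP-43ΔNLS, and the log2 fold changes against wild type were 0.45 ± 0.38 and 0.42 ± 0.38. Despite their shared stretch of chromosome IV, the log2 CPM of dod-17, dod-22 and dod-24 correlated at only 0.254 to 0.503 over the 12 libraries, and at 0.00194 to 0.0966 after centring within the sides.

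lea-1 (WBGene00002263, chromosome V, 10011923 to 10028168, plus strand) was the steadiest member. It encodes a late embryogenesis abundant protein, of a family that protects cells against drying. Its CPM ran from 259 to 329 in wild type, 260 to 336 in TDP-43 and 238 to 350 in TDP-43ΔNLS, with a highest library only 1.47 times the lowest. The 95% intervals of its log2 fold changes were -0.38 to 0.38 in TDP-43 and -0.30 to 0.46 in TDP-43ΔNLS against wild type. By contrast, the highest library was 29.1 times the lowest for mtl-1 and 22.5 times for ftn-1.

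The genes upstream did not pass the test either. Over 19 genes of the insulin and DAF-16 cascade, the designed edgeR fit called 0 in each comparison, with 0 at an unadjusted p under 0.05, and the median log2 fold changes were -0.01, 0.01 and 0.03. daf-16 itself stood at 175 to 232 CPM in wild type, 140 to 234 in TDP-43 and 204 to 242 in TDP-43ΔNLS, with TDP-43 replicate 4 the lowest library. The lowest p values of the list belonged to ist-1, the insulin receptor substrate gene, and pqm-1. pqm-1 stood at 47.1, 61.3 and 51.8 CPM in the oocyte-poor libraries of wild type and TDP-43ΔNLS, but at 14.2 CPM in that of TDP-43. Its log2 fold change between the strains was 1.00 ± 0.50 (edgeR adjusted p 0.998), TDP-43ΔNLS minus TDP-43, and that of ist-1 was 0.61 ± 0.41 (0.998). With the split term these were 0.49 ± 0.43 and 0.28 ± 0.26. The lowest p of ist-1 was in TDP-43 against wild type, at -0.73 ± 0.41, or -0.67 ± 0.25 with the split term (edgeR adjusted p 0.696). In that comparison 2 of the 19 genes reached an unadjusted p under 0.05 with the split term, beside 1044 of 16637 genes tested. The other comparisons had 0 with the split term.

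A list of 15 further genes raised by DAF-16, of which 13 could be tested, had 0 calls in each edgeR comparison. In the designed fit 0, 1 and 2 members had an unadjusted p under 0.05, against 1.83, 1.45 and 2.57 percent of all genes. Over all genes tested, 48.1, 50.8 and 50.5 percent were negative in these comparisons. In TDP-43 against wild type 11 of 13 were negative (median -0.23), in TDP-43ΔNLS 9 of 13 were positive (median 0.28), and between the strains 10 of 13 were positive, TDP-43ΔNLS minus TDP-43 (median 0.62). Beside these, 10 of 11 intestine genes were negative in TDP-43 (median -0.44) and 6 of 11 positive in TDP-43ΔNLS (median 0.01) against wild type. Between the strains 10 of 11 intestine genes were positive (median 0.53), in the same direction as the targets. With the split term 13 of 13 of these further targets were positive between the strains (median 0.46), beside a median of -0.01 over all genes tested. Of the intestine genes 9 of 11 were then positive (median 0.25). Against wild type the split-term medians in TDP-43 and TDP-43ΔNLS were -0.22 and 0.24 for the targets and -0.36 and -0.20 for the intestine genes. Summed CPM of the intestine genes was 1240 to 3510 in wild type, 1350 to 2170 in TDP-43 and 1290 to 3860 in TDP-43ΔNLS. No intestine marker was at 0 in every library of a strain, and the part of this tissue in the values was not tested.

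sod-3, the mitochondrial superoxide dismutase gene and a standard DAF-16 reporter, had the lowest p of that list. It stood at 12, 7.45, 9.89 and 17.5 CPM in wild type replicates 1 to 4. TDP-43 held 10.4, 7.98, 10.5 and 11.3 CPM, and TDP-43ΔNLS 11.9, 15.1, 24.7 and 45.6 CPM. All 4 TDP-43ΔNLS libraries lay above all 4 TDP-43 libraries, with the highest value again in replicate 4. Of all genes tested, 1.04 percent were separated in this direction. The log2 fold change between the strains was 1.28 ± 0.43 (unadjusted p 0.0124, edgeR adjusted p 0.998). nnt-1, which encodes the nicotinamide nucleotide transhydrogenase of mitochondria, had 1.86 ± 0.69 in the same comparison (0.0199 and 0.998), with 28.4, 35.2 and 44 CPM in the oocyte-poor libraries of wild type and TDP-43ΔNLS and 6.86 CPM in that of TDP-43. With the split term nnt-1 had 0.99 ± 0.48 (unadjusted p 0.0622) and sod-3 0.89 ± 0.30 (0.0108), both at edgeR adjusted p of 0.857 or more.

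Likeness of pattern was measured as Pearson's r of log2 CPM over 12 libraries, against 11178 other genes with a mean of at least 5 CPM. Each r below is the highest of 11178 values over only 12 libraries, so a high r can come from this choice alone. Shared regulation was not tested. The gene most like mtl-1 was tts-1 (0.903), which also stayed first after centring within the sides (0.919). For icl-1 it was acer-1 (0.923), for hil-1 K06H7.7 (0.913), for ftn-1 nhr-243 (0.94) and for dod-3 crh-1 (0.943). For dod-6 it was phat-6 (0.965) and for dod-24 F56B3.2 (0.963). The number of genes above 0.9 was 380 for dod-24 and 41 for dod-6, the genes that follow the split, and 1 each for mtl-1, icl-1 and hil-1. For lea-1, dod-17 and dod-22 no gene reached 0.9, the nearest being Y43B11AR.1 (0.871), C50A2.3 (0.85) and unc-54 (0.871). After centring within the sides the nearest genes were bca-1 for icl-1 (0.925), sbds-1 for hil-1 (0.917), WBGene00013842 for ftn-1 (0.917), crh-1 again for dod-3 (0.924), C54D10.3 for dod-6 (0.971) and ptr-15 for dod-24 (0.907). For lea-1, dod-17 and dod-22 they were C23H5.15 (0.893), daf-22 (0.885) and C53D6.7 (0.885).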

How the data were processed

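The deposited data were unnormalized read counts for 46926 genes in 12 libraries, with each column matched to its sample by library name. Per the submitters' processing notes, tools were R 4.4.2, featureCounts 2.20.0 and STAR, on WBcel235. For annotation release, strand setting and multi-mapping reads, nothing is given in the sources used here. Every identifier was found in the Ensembl WBcel235 annotation, the source of symbols, coordinates and exon lengths.

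In R 4.3.3, filterByExpr (minimum count 10) kept 16637 genes with 99.9% of counts. All 12 libraries, TMM-scaled, entered 1 fit in edgeR 4.0.16 (robust quasi-likelihood, no covariate), with p adjusted by Benjamini-Hochberg over all genes, threshold 0.05. CPM uses TMM-adjusted totals. SE and 95% intervals derive from the fold change and its F statistic. A pseudocount of 0.5 CPM was used for log2 levels. The split term separates libraries under 6 in mean log2 CPM of the oocyte list. Alternatives were other scalings and filters, DESeq2 1.42.0, limma 3.58.1 voom, only the groups compared, a replicate block, the split term, omission of the oocyte-poor libraries, and omission of single libraries. Scripts were checked on simulated counts.

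Members, lists and tests were chosen with earlier results of these data known. All members are named. The oocyte, yolk, intestine, adult cuticle, molting and neuron lists are given as whole lists only. From the remaining lists the 2 genes of lowest p are named plus, chosen after their values were seen, daf-16 and the genes of the closing section. The oocyte, yolk, neuron, ferritin and iron, and other dod lists are summarised there. Libraries of a strain differed by 33.5 times the sampling variance or more, so none is a copy. Deviations of same-numbered TDP-43 and wild type libraries from their strain means correlated at 0.231, 0.61, 0.594 and 0.863. In this comparison 5 of 8 libraries matched their own number best. Replicate 4 is the single oocyte-poor library of both strains, which alone can make such correlations positive, so they cannot show pairing. The labels give no pairing and the main fit has no pairing term. The replicate block is among the alternatives only.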

Additional observations from a re-analysis of the deposited data

Results flagged for a closer look

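In 4 of 30 sets of 4 libraries (10 genes in 3 strains), 1 library lay farther from the rest than Dixon's 95% limit allows. For independent normal values chance does so in about 1 of 20 sets. Here strains mix oocyte-poor and oocyte-rich libraries and some genes vary together, so the 4 sets cannot be weighed against that rate. In TDP-43ΔNLS replicate 4, mtl-1 stood at 26.9 CPM, with a gap to the next library of 0.832 of the whole range, and hil-1 stood at 31 CPM, with a gap of 0.836. In TDP-43 replicate 4, dod-24 stood at 18.7 CPM, with a gap of 0.84, and that library is the single oocyte-poor one of its strain. In TDP-43ΔNLS replicate 2, dod-22 was the lowest of its strain at 4.38 CPM, with a gap of 0.832.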

How the results depend on the processing

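The count of 0 members past the threshold held under all 22 alternatives in each comparison, over adjusted p from 0.537 to 1. The replicate block also gave 0 members, and log2 fold changes of icl-1 of -0.50 and -0.60 against wild type. Deviations of same-numbered libraries from their strain means correlated at 0.298, 0.749, -0.718 and 0.792 for replicates 1 to 4 of TDP-43ΔNLS and wild type. Between the strains they correlated at 0.418, 0.827, -0.663 and 0.751. In these comparisons 2 and 3 of 8 libraries matched their own number best. Replicate 3 is oocyte-poor in TDP-43ΔNLS alone, which can make its correlation negative. These values therefore cannot show whether replicate numbers pair the libraries. Across alternatives the range of icl-1 against wild type was -0.66 to -0.37 (TDP-43) and -0.71 to -0.47 (TDP-43ΔNLS). The count over all genes in TDP-43 against wild type, 1, was 0 with upper-quartile scaling, 0 with the filter of 10 CPM in 4 libraries and 0 with the replicate block, 21 with DESeq2, 16 with the split term and 9 without the oocyte-poor libraries, and 0 to 1 without 1 library. In TDP-43ΔNLS against wild type, 0 became 16, 9 and 6 with DESeq2, the split term and those libraries left out, and between the strains 8 with DESeq2 and 1 with the split term; without 1 library both stayed at 0. The cause was not tested.

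Signs of uncalled values turned as follows. In TDP-43 against wild type, dod-22 was 0.02 with DESeq2 size factors and 0.02 in the DESeq2 test, ftn-1 0.26 with the replicate block and 0.38 with the split term, and without the oocyte-poor libraries mtl-1 was 0.14 and ftn-1 0.71. In TDP-43ΔNLS against wild type, dod-3 was -0.14 with voom, -0.01 with the replicate block and -0.23 with the split term, and dod-24 -0.01 with the split term. Without the oocyte-poor libraries ftn-1 was -1.13, hil-1 -0.04, dod-3 -0.53 and dod-24 -0.04. Between the strains dod-17 was 0.02 with upper-quartile scaling, 0.02 with the stricter filter and ftn-1 -0.14 with the split term. Without the oocyte-poor libraries ftn-1 was -1.84, icl-1 0.19, dod-3 -0.09 and dod-17 0.11. Leaving out 1 library turned signs within -0.22 to 0.13 (dod-22), -0.53 to 0.47 (ftn-1), -0.94 to 0.11 (dod-6) and -0.04 to 1.19 (dod-24) in TDP-43. In TDP-43ΔNLS the ranges were -0.32 to 0.31 (dod-3) and -0.05 to 0.71 (hil-1), and between the strains -0.19 to 0.02 (icl-1), -0.23 to 0.16 (dod-17) and -0.56 to 0.49 (dod-24). The filter of 10 CPM left 6 members to test.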

Other observations

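Other DAF-16 targets, among them sip-1 and dod-23, also followed the oocyte split, against the direction of dod-6 and dod-24. sip-1, a small heat shock gene on the list of genes raised by DAF-16, stood at 12.7 to 67.5 CPM in the oocyte-poor libraries and at 676 to 2140 CPM in the oocyte-rich ones. dod-23 stood at 0.32 to 5.16 and 18.4 to 42.5 CPM. On the same lists dod-18 (5.93 to 8.65 and 10.5 to 26.9 CPM) and hsp-12.6 (0.0421 to 0.721 and 0.809 to 2.12 CPM) were also wholly lower. Wholly higher in the oocyte-poor libraries were ctl-1, ctl-2 and tps-1. Of all genes tested, 24.6 percent lay wholly lower in the oocyte-poor libraries and 22.3 percent wholly higher. Following the split was thus not particular to these targets. Of the 5 other dod genes 4 could be tested, and 0 passed in any edgeR comparison or at an unadjusted p under 0.05. The 2 of lowest p were dod-19, at 183 to 664 CPM over all libraries, and dod-20, at 0.366 to 11.6 CPM.

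The trehalose synthase gene tps-1 and the catalase gene ctl-1 were higher in the oocyte-poor libraries of every strain, TDP-43 included, unlike mtl-1. In the oocyte-poor libraries of wild type and TDP-43ΔNLS tps-1 stood at 111, 123 and 111 CPM, and in that of TDP-43 at 68.4 CPM, above 49.7, 45.5 and 39.3 CPM in the oocyte-rich TDP-43 libraries. ctl-1 stood at 5.46, 5.52 and 5.24 CPM and at 2.69 CPM, the last above 2.33, 2.4 and 1.42 CPM in the oocyte-rich TDP-43 libraries. In every strain the oocyte-poor libraries were also the higher ones for ctl-2, stdh-1 and sod-3 of the same list. Of all genes tested, 22.3 percent lay wholly higher in the oocyte-poor libraries. tps-1 and ctl-1 were chosen after their values were seen, and 1 library carries the TDP-43 value.

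Of 8 iron genes 7 could be tested and 0 passed in any edgeR comparison, with 0 at an unadjusted p under 0.05. ftn-2, the other ferritin gene, had log2 fold changes of -0.25 ± 0.31 in TDP-43 and 0.22 ± 0.31 in TDP-43ΔNLS against wild type, and egl-9, the HIF-1 prolyl hydroxylase gene, -0.40 ± 0.30 and -0.14 ± 0.30. Of 12 neuron genes 12 were negative in TDP-43 (median -0.27) and 8 positive in TDP-43ΔNLS (median 0.13), and 0 passed. With the split term all 12 were negative in both (medians -0.32 and -0.19). Of these, 4 in TDP-43 and 1 in TDP-43ΔNLS had an unadjusted edgeR p under 0.05, beside 1044 of 16637 genes tested in TDP-43. All 6 yolk genes were negative in each, with medians of -0.32 and -0.64, and of 18 oocyte genes 17 were positive in TDP-43 (median 0.21) and 18 negative in TDP-43ΔNLS (median -0.27), again with 0 past. All 4 adult cuticle genes were negative in each (medians -0.30 and -0.37), and 8 and 7 of 8 molting genes were positive (medians 0.34 and 0.54), with 0 past. With the split term all 18 oocyte genes were positive in both, and 4 and 5 of 6 yolk genes were positive (medians 0.17 and 0.48). In TDP-43ΔNLS the split term also turned adult cuticle genes, 3 of 4 positive (median 1.19), and molting genes, 0 of 8 positive (median -0.70).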
